A study of Mus musculus with 28 samples.

Results

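Thbd, Itpkb, Cebpd, Sh3bp4 and Ednrb are 5 of the 14711 coding genes measured in mouse hippocampal CA1, and they are described here together because kainic acid moved their level differently in immunoprecipitated ribosomes and in whole tissue. The members were chosen by that difference, the kainic acid effect in the IP minus the effect in the input of the CaMK2a line. Among the genes past the adjusted p threshold with a mean log2 CPM (counts scaled to library size) of at least 3, 5 with a positive and 6 with a negative difference, Ednrb had rank 4 of the positive and Cebpd, Itpkb, Thbd and Sh3bp4 were 4 of the first 5 negative ones. Other genes that did not pass had larger differences. Every value of the 5 genes in the CaMK2a line therefore describes the choice and was given no test, and only the PV line, whose list of largest differences held none of them, was tested. All 5 passed the filter on low counts in all 10 comparisons.

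Both mouse lines were C57BL/6 animals 3 to 4 weeks old that carried 1 copy of LSL-Rpl22-HA, a ribosomal protein that gains an HA tag in cells with Cre recombinase. The Cre was driven by CaMK2a, a gene of excitatory neurons (CaMK2a-Cre/+), or by the parvalbumin gene of fast-spiking inhibitory neurons (PV-Cre/+). Mice of each line received kainic acid, which activates glutamate receptors and causes seizures, or PBS, and the labels give 6 h to dissection for all groups. The deposited column names mark the PBS groups with hour 0, so the time after PBS is uncertain. Each CA1 lysate gave an input library of the whole tissue and an anti-HA IP library of tagged ribosomes. The 8 groups held 3 libraries each in the CaMK2a line, with 4 mice pooled per lysate and 20 ng of RNA amplified, and 4 libraries each in the PV line, with 9 to 10 mice and 2.5 ng. The 28 libraries held 6.06 to 15.8 M counts, and the 5 genes had 22 to 1226 counts per library. In the CaMK2a IP after PBS 8 of 9 CA1 pyramidal markers were higher and all 11 astrocyte markers lower than in input, and in the PV IP 7 of 8 PV interneuron markers were higher (8 without PV replicate 4), by the edgeR quasi-likelihood test at an adjusted p threshold of 0.05. PV replicate 4 stood apart, since its deviations from the group mean correlated with r of 0.331 to 0.575 between groups, against 0.0258 to 0.145 for PV replicates 1 to 3. PV results of the 5 genes are therefore also given without it where a call or a sign changes.

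A transcript can be high in an IP because tagged cells hold it or because RNA of other cells is carried along, and in an input because any cell of the tissue holds it. Thbd encodes thrombomodulin, a surface receptor that binds thrombin and turns it towards activation of protein C, best known from blood vessel endothelium. Ednrb encodes the type B endothelin receptor, a G protein-coupled receptor that astrocytes carry in the brain. Itpkb encodes a kinase that phosphorylates inositol trisphosphate, the messenger that releases calcium from internal stores. Cebpd encodes C/EBP delta, a leucine zipper transcription factor induced by inflammatory cytokines, and Sh3bp4 encodes an adaptor of transferrin receptor endocytosis that also binds Rag GTPases, which control mTORC1.

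RefSeq promoter sequences on GRCm38.p6 were matched by gene ID for 3 of the 5 genes, Sh3bp4, Itpkb and Ednrb. They are shown because they differ in base composition and in the single motif match found. The Sh3bp4 and Itpkb runs end before the RefSeq gene start and the Ednrb run before the start of its promoter entry. Each run reads 5′ to 3′ on the gene's strand. Capitals mark a match to the NF-kB motif. The Sh3bp4 run lies at chr1:89070165-89070332 on the plus strand, the Itpkb run at chr1:180330226-180330389 on the plus strand and the Ednrb run at chr14:103843702-103843951 on the minus strand.
Sh3bp4: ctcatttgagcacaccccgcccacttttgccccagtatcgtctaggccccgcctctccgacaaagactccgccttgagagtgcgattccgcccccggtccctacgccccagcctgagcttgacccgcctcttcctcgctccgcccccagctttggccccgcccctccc
Itpkb: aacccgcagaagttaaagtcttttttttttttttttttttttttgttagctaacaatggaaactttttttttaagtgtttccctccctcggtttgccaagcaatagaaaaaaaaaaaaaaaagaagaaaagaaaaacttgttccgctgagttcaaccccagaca
Ednrb: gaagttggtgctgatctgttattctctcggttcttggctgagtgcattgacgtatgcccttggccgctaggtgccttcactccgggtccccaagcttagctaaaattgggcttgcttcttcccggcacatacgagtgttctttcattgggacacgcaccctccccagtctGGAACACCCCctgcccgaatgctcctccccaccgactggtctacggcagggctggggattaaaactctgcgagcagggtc
The Sh3bp4 run is 67.3% G or C with 13 CpG dinucleotides, the Ednrb run is 56.8% with 11 and the Itpkb run is 31.1% with 3. The Ednrb run lies inside the gene span of the deposited tables, in an intron of a longer GENCODE transcript. The search covered both strands of the 250 bases before the start of each promoter entry. For Sh3bp4 and Itpkb these extend past the printed bases. Motifs searched were AP-1 (TGANTCA), CRE (TGACGTCA), C/EBP (TTNCNNNAA), STAT (TTCNNNGAA), glucocorticoid receptor, CArG box and NF-kB, with no allowance for overlap between motifs. The only match was the NF-kB motif that starts 80 bases before the Ednrb start. Of 32851 promoters of the same length, 7.25% held the NF-kB motif, 6.75% AP-1, 1.55% CRE, 32.9% C/EBP, 7.02% STAT, 0.387% the glucocorticoid receptor motif and 1.47% the CArG box.

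In the CaMK2a input all 5 genes had kainic acid and PBS libraries that did not overlap, 4 higher and Sh3bp4 lower after kainic acid. Across all genes 23.6% were higher and 23.9% lower without overlap, and 19.3% were called higher and 15.7% lower by test. In the CaMK2a IP Ednrb was higher, Itpkb and Sh3bp4 were lower, and the libraries of Thbd and Cebpd overlapped, beside 24.4% of all genes higher and 24.9% lower without overlap, and 19.8% called higher and 15.3% lower by test. These counts come from the line taken as used in the choice. In the PV input Itpkb, Cebpd and Ednrb rose by test, 3 of 5 members, beside 8.21% of all genes called higher and 3.36% lower. With the replicate number as a block Thbd was called too, 4 of 5, beside 16.5% of all genes called higher and 14.3% lower. That block pairs different mice by a correlation found in the same counts, so its calls are an alternative only. In the PV IP only Ednrb rose, 1 of 5, beside 4.05% called higher and 0.801% lower. The plot of levels by library shows each gene in all 8 groups in CPM, its counts scaled to a common library size with TMM factors.

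**Figure D1:**
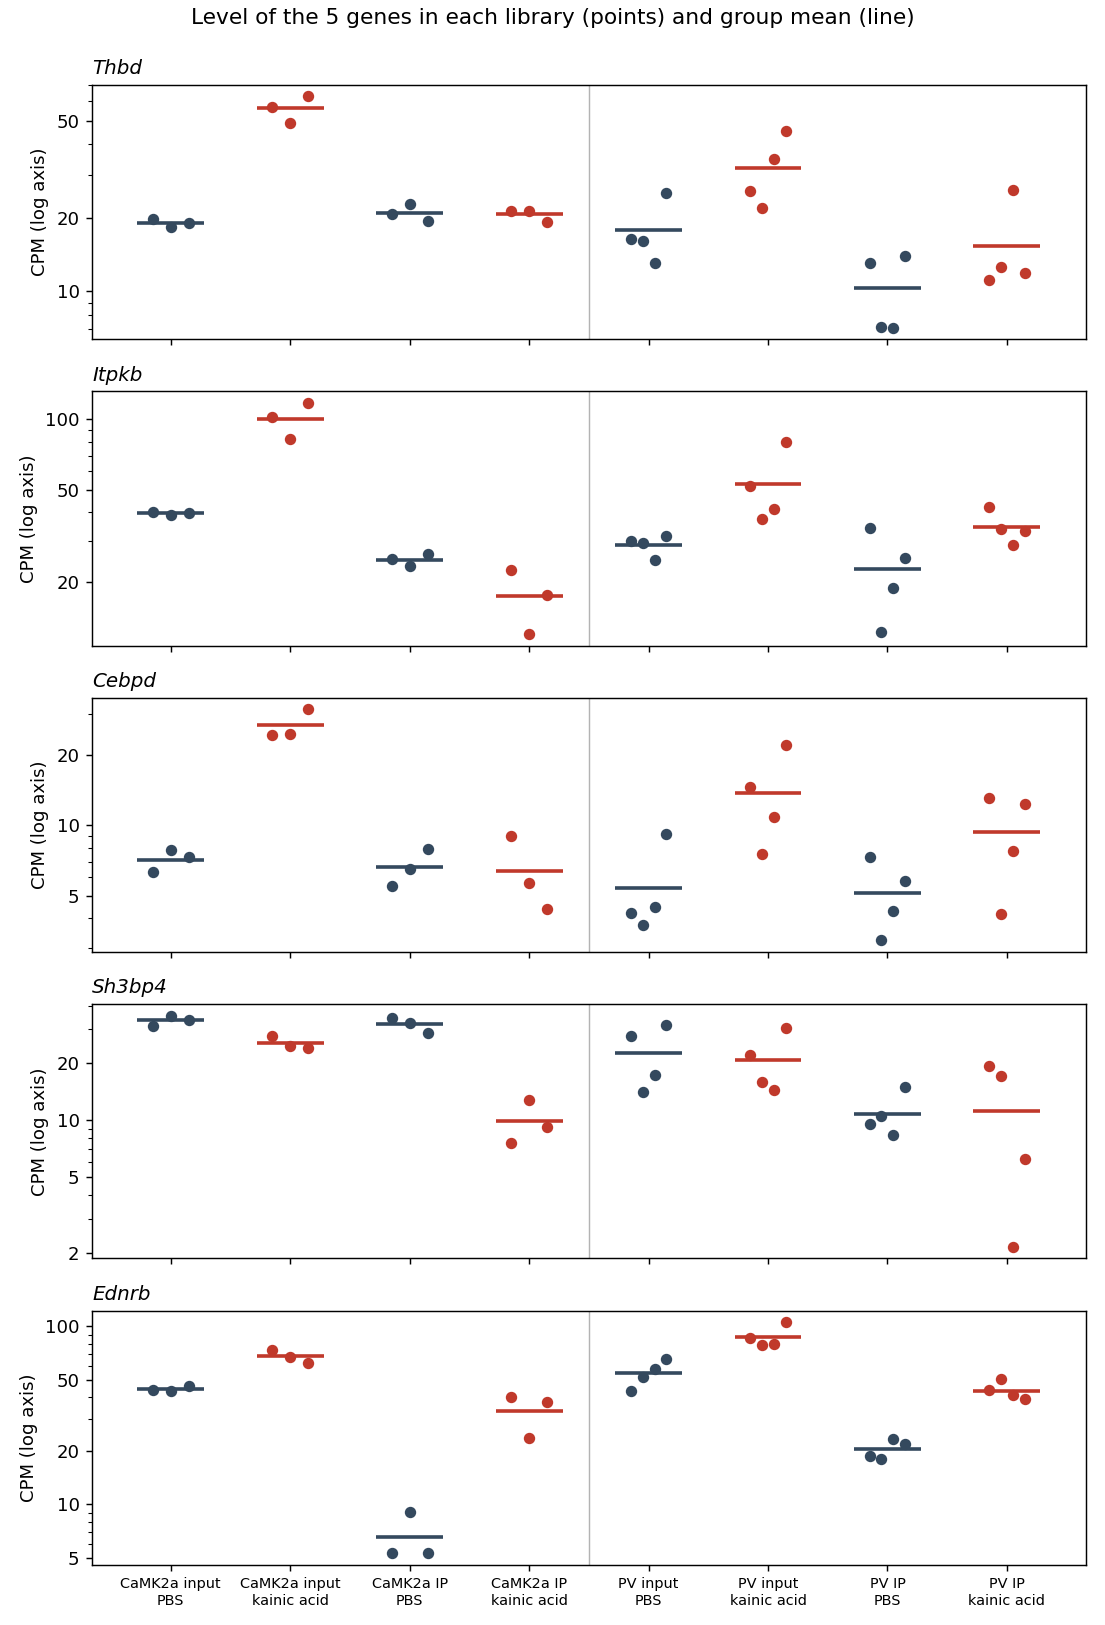
CPM (log axis) of the 5 genes in each of 28 libraries (points) with the group mean (line), PBS in dark blue and kainic acid in red, with 1 panel per gene, the CaMK2a line left and the PV line right. In the CaMK2a line Thbd, Itpkb and Cebpd stand high in the kainic acid input alone, Sh3bp4 is lowest in the kainic acid IP and Ednrb is lowest in the PBS IP.

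Thbd (gene ID 21824, chr2:148404471-148408188, minus strand, 1 exon) gave 19.7, 18.3 and 19.0 CPM in the CaMK2a inputs after PBS and 57.1, 49.2 and 62.9 after kainic acid. In the matching IPs it gave 20.7, 22.8 and 19.4 CPM after PBS and 21.3, 21.4 and 19.3 after kainic acid. All kainic acid inputs lay above all PBS inputs, whereas the IP libraries overlapped in a narrow band at the level of the PBS inputs. Thbd was thus 2.98-fold higher in the input (log2 1.58 ± 0.14 SE) after kainic acid, and its log2 change in the IP lay in a 95% interval of -0.31 to 0.31.

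The spread of Thbd was wider in the PV line. PV inputs held 16.4, 16.1, 13.1 and 25.4 CPM after PBS and 25.9, 21.9, 34.9 and 45.3 after kainic acid. PV IPs held 13.0, 7.14, 7.12 and 14.0 CPM after PBS and 11.1, 12.6, 25.9 and 11.9 after kainic acid. Replicate 4 was the highest PV input under each treatment, and 1 kainic acid IP, replicate 3, stood above the other 7 IPs. The groups overlapped in both fractions. The change was 0.88 ± 0.27 on the log2 scale in the input and 0.57 ± 0.42 in the IP (edgeR adjusted p = 0.0573 and 0.556), so neither passed the threshold. The input change was 0.87 ± 0.18 with the replicate number as a block (adjusted p = 5.09e-04) and 0.90 ± 0.21 without replicate 4 (adjusted p = 0.0027), and it also passed with DESeq2 (adjusted p = 0.0183). It passed as well at 1.02 without kainic acid input replicate 2 and at 1.12 without PBS input replicate 4 (adjusted p = 0.0381 and 0.0132).

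Ednrb (gene ID 13618, chr14:103814615-103844476, minus strand, 8 exons), the other surface receptor, was the member with a positive IP minus input difference. CaMK2a inputs held 44.2, 43.5 and 46.0 CPM after PBS and 73.5, 67.8 and 62.6 after kainic acid. CaMK2a IPs held 5.32, 9.03 and 5.33 CPM after PBS and 39.9, 23.5 and 37.6 after kainic acid. Neither fraction showed overlap, and each kainic acid IP still lay below each PBS input. Ednrb was 5.31-fold higher in the IP (log2 2.41 ± 0.27) and 1.54-fold higher in the input (0.62 ± 0.12).

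Ednrb rose in both fractions of the PV line. PV inputs held 43.5, 52.3, 57.7 and 65.3 CPM after PBS and 86.2, 78.2, 79.2 and 105.7 after kainic acid. PV IPs held 18.8, 18.04, 23.4 and 21.97 CPM after PBS and 44.0, 50.7, 40.96 and 38.9 after kainic acid. In each fraction all 4 kainic acid libraries lay above all 4 PBS libraries. The rise was 0.71 ± 0.17 on the log2 scale in the input and 1.08 ± 0.25 in the IP (edgeR adjusted p = 0.0151 and 0.0152). The IP rise was 1.04 without PBS IP replicate 1 and 1.03 without replicate 2 (adjusted p = 0.0553 and 0.0633), and the input rise was 0.61 and 0.68 without PBS input replicate 1 or 2 (adjusted p = 0.0554 and 0.0588).

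Itpkb (gene ID 320404, chr1:180330476-180424802, plus strand, 10 exons), the inositol trisphosphate kinase, was the member that moved in opposite ways. CaMK2a inputs held 40.1, 39.0 and 39.6 CPM after PBS and 102.7, 82.2 and 117.8 after kainic acid. CaMK2a IPs held 25.2, 23.5 and 26.5 CPM after PBS and 22.7, 12.0 and 17.7 after kainic acid. The inputs were all higher and the IPs all lower after kainic acid, with no overlap in either fraction. Itpkb was 2.56-fold higher in the input (log2 1.36 ± 0.14) and 1.42-fold lower in the IP (-0.51 ± 0.21).

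In the PV input Itpkb rose, from 30.1, 29.5, 24.9 and 31.6 CPM after PBS to 51.9, 37.5, 41.1 and 80.3 after kainic acid. The groups did not overlap, and the rise was 0.89 ± 0.23 (edgeR adjusted p = 0.025). PV IPs held 34.3, 12.2, 19.0 and 25.4 CPM after PBS and 42.2, 34.0, 29.1 and 33.2 after kainic acid. They overlapped, and the change of 0.61 ± 0.32 did not pass (adjusted p = 0.378). The input rise missed the threshold without kainic acid input replicate 1 (0.90, adjusted p = 0.0587), PBS input replicate 1 (0.91, 0.064), 2 (0.90, 0.0709) or 3 (0.83, 0.0821), and in a fit to all PV groups (adjusted p = 0.0747). Itpkb shares 66 of its 10463 exonic bases with the pseudogene Gm5069 on the opposite strand.

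Cebpd (gene ID 12609, chr16:15887286-15889545, plus strand, 1 exon), the transcription factor, had the lowest CPM of the 5 genes in the CaMK2a input after PBS. CaMK2a inputs held 6.32, 7.81 and 7.30 CPM after PBS and 24.4, 24.5 and 31.3 after kainic acid. CaMK2a IPs held 5.51, 6.51 and 7.95 CPM after PBS and 9.02, 5.68 and 4.39 after kainic acid. The inputs were apart and the IPs overlapped. Cebpd was 3.76-fold higher in the input (log2 1.91 ± 0.19) and differed by -0.05 ± 0.30 in the IP. Strand is not given in the sources used here, and 322 of the 2260 bases of Cebpd overlap exons of Spidr on the opposite strand, so reads of the pair cannot be told apart.

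In the PV input Cebpd rose, from 4.24, 3.75, 4.49 and 9.19 CPM after PBS to 14.5, 7.54, 10.9 and 22.1 after kainic acid. Replicate 4 was the highest under each treatment, and its PBS library lay above the lowest kainic acid library. The rise was 1.37 ± 0.39 (edgeR adjusted p = 0.0401), and 1.44 ± 0.33 without replicate 4 (adjusted p = 0.00218). PV IPs held 7.35, 3.22, 4.30 and 5.77 CPM after PBS and 13.1, 4.18, 7.80 and 12.3 after kainic acid. They overlapped, and the change of 0.86 ± 0.53 did not pass (adjusted p = 0.474). The input rise missed the threshold without any 1 of 6 of the 8 libraries, namely kainic acid replicate 1 (1.34, adjusted p = 0.0903), 3 (1.46, 0.0667) or 4 (1.04, 0.0720) and PBS replicate 1 (1.26, 0.114), 2 (1.22, 0.121) or 3 (1.28, 0.109). It also missed it with upper-quartile factors (adjusted p = 0.0574) and in a fit to all PV groups (adjusted p = 0.0835).

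Sh3bp4 (gene ID 98402, chr1:89070462-89155084, plus strand, 7 exons), the endocytic adaptor, was the only member lower after kainic acid in both CaMK2a fractions. CaMK2a inputs held 31.2, 35.4 and 33.7 CPM after PBS and 27.7, 24.4 and 24.0 after kainic acid. CaMK2a IPs held 34.3, 32.4 and 28.8 CPM after PBS and 7.52, 12.7 and 9.21 after kainic acid. Neither fraction overlapped, and the gap was wider in the IP. Sh3bp4 was 3.19-fold lower in the IP (log2 -1.67 ± 0.19) and 1.31-fold lower in the input (-0.39 ± 0.14).

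No change of Sh3bp4 passed the test in the PV line. PV inputs held 27.7, 14.1, 17.3 and 31.4 CPM after PBS and 22.1, 15.8, 14.3 and 30.4 after kainic acid. PV IPs held 9.53, 10.5, 8.36 and 14.8 CPM after PBS and 19.2, 16.97, 2.15 and 6.19 after kainic acid. The kainic acid IPs ran from below to above all PBS IPs. The change was -0.10 ± 0.30 in the input and 0.04 ± 0.55 in the IP (edgeR adjusted p = 0.89 and 0.984), and the sign in the IP turned to -0.04 with upper-quartile factors. The 95% interval in the IP, -1.12 to 1.20, held changes of over 2-fold either way.

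**Figure D2:**
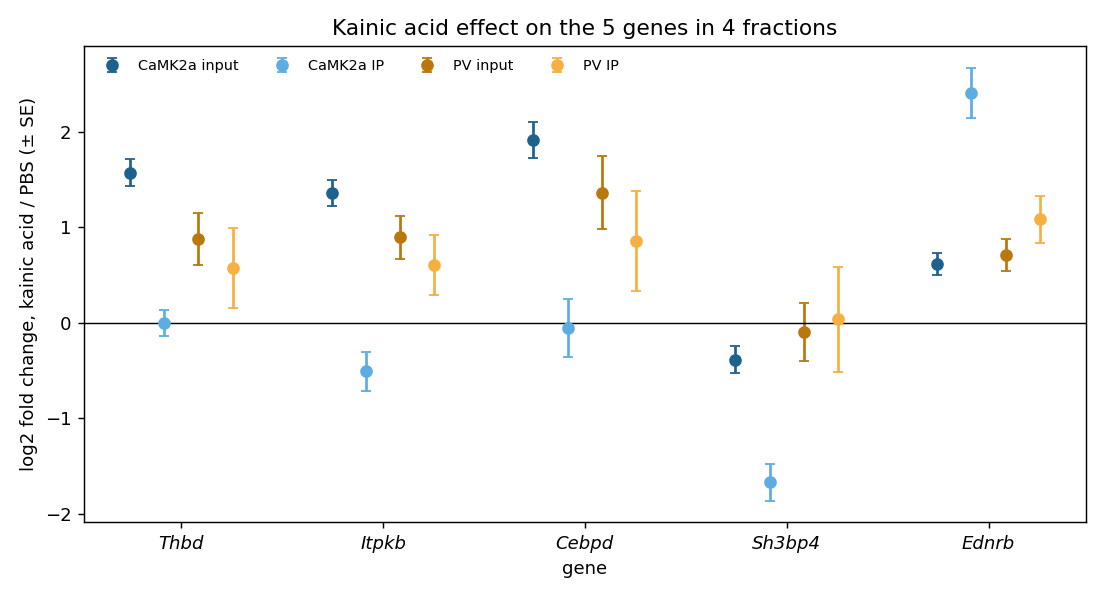
Log2 fold change of kainic acid against PBS with SE (y) for the 5 genes (x) in the CaMK2a input and IP (blue) and the PV input and IP (orange), each from 3 or 4 libraries per group. CaMK2a input and IP points lie far apart for each gene, whereas the PV points of a gene lie within the range of their errors.

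The difference between the 2 responses, IP minus input, was in the CaMK2a line -2.003 ± 0.349 for Cebpd, -1.91 ± 0.26 for Itpkb, -1.62 ± 0.19 for Thbd, -1.33 ± 0.23 for Sh3bp4 and 1.76 ± 0.29 for Ednrb on the log2 scale. Of 11623 genes tested 0.043% were called higher and 0.0602% lower, 5 and 7 genes. With the lysate pool as a block, which pairs each IP with its own input, 26 and 31 genes were called. Among the 5 and 6 genes that passed with a mean log2 CPM of at least 3, Klf3 lay between the members at -1.55, Ralb lay just outside at -1.30, and Npy at 2.52, Ptgs1 at 2.32 and Unc5b at 1.95 lay above Ednrb with Rgs10 below it at 1.48. These values were taken as part of the choice and are a description.

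None of the 5 genes had a difference between IP and input responses that passed the test in the PV line. The difference was -0.48 ± 0.62 for Cebpd, -0.26 ± 0.40 for Itpkb, -0.28 ± 0.48 for Thbd, 0.17 ± 0.66 for Sh3bp4 and 0.41 ± 0.26 for Ednrb, and each edgeR adjusted p was 1.00. Their signs are not settled, since each 95% interval spans both directions. The sign of Sh3bp4 turned with the lysate pool as a block (-0.20) and that of Itpkb without replicate 4 (0.03). The 95% intervals were -1.77 to 0.82 for Cebpd, -1.08 to 0.57 for Itpkb, -1.27 to 0.72 for Thbd, -1.20 to 1.54 for Sh3bp4 and -0.12 to 0.94 for Ednrb. Whether the lines differ was not tested. Of 11862 genes in the PV line 0.00843% were called higher and 0.0169% lower, 1 and 2 genes, or 4 and 5 with the block.

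To describe the cell source, IP was set against input after each treatment. In bulk tissue, fewer cells of a type and less RNA per cell cannot be told apart. In the CaMK2a line after PBS, Thbd, Cebpd and Sh3bp4 had IP libraries that overlapped the inputs, with median IP to input ratios within a pool of 1.05, 0.873 and 0.916. Itpkb was lower in the IP at a ratio of 0.627, and Ednrb was much lower at 0.120, with 0.116 to 0.208 over the 3 pools. The summed astrocyte markers had a ratio of 0.194, microglia markers 0.0868, endothelial markers 0.221 and CA1 pyramidal markers 1.19. The dentate granule cell ratio was 0.853, the PV interneuron ratio 0.236 and that of other interneurons 0.128. The mural ratio was 0.176 (0.151 to 0.242) and the blood leukocyte ratio 0.189 (0.165 to 0.241). The Ednrb range overlapped those of glial, endothelial, mural, leukocyte and other interneuron lists, and PV interneuron ratios (0.222 to 0.285) lay above it. The ratios of Thbd, Cebpd and Sh3bp4 lay in the range of the dentate granule and pyramidal lists. Their log2 differences were also near the middle of all genes, at percentiles 60.1, 45.8 and 48.4, and the scaling sets that middle near equality. These ratios therefore do not name a cell type for any of these 4 genes. Of all genes 32.9% were higher and 34.9% lower in the IP without overlap, and 32.6% were called higher and 31.6% lower by test.

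After kainic acid all 5 genes were lower in the CaMK2a IP than in the input with no overlap, beside 30.2% of all genes lower and 28.6% higher without overlap, and 25.8% called lower and 24.3% higher by test. The median ratio was 0.374 for Thbd (0.307 to 0.436), 0.150 for Itpkb (0.146 to 0.221), 0.231 for Cebpd (0.140 to 0.370) and 0.384 for Sh3bp4 (0.272 to 0.521). For Ednrb it was 0.543 (0.347 to 0.601), above its ratio after PBS in every pool. The ratios of Thbd, Itpkb, Cebpd and Sh3bp4 were below those after PBS in every pool. Over the same libraries the astrocyte ratio was 0.212. Its ranges, 0.141 to 0.282 after kainic acid and 0.179 to 0.256 after PBS, overlapped. The microglia ratio was 0.0977, the CA1 pyramidal ratio 1.12 and the endothelial ratio 0.131, the last from 0.115 to 0.245 against 0.184 to 0.336 after PBS. Astrocyte markers summed to 1763 to 2513 CPM in the PBS IPs and 1629 to 3088 in the kainic acid IPs, for 11 of 13 markers, without Aqp4 and Gfap, which were not analysed here, and most of that sum was Slc1a2. The ratio of the other interneuron markers, which include Npy and Sst, moved from 0.128 to 0.456 without overlap. The part of astrocyte or other interneuron RNA in the Ednrb value was not tested.

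**Figure D3:**
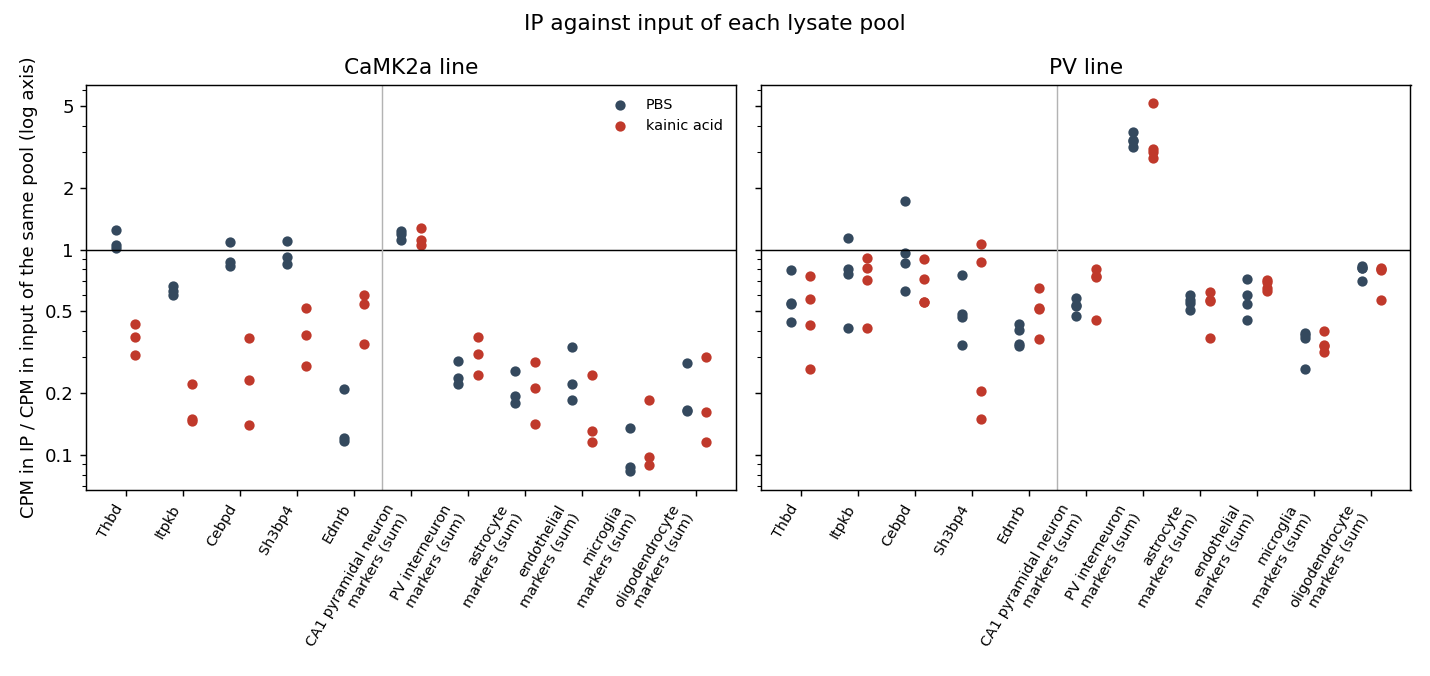
CPM in the IP over CPM in the input of the same lysate pool (y, log axis, 1 marks equality) for the 5 genes and for summed cell type markers (x), PBS in dark blue and kainic acid in red, 1 point per pool. In the CaMK2a line the ratios of 4 genes are lower and that of Ednrb is higher after kainic acid. The astrocyte and CA1 pyramidal sums overlap between treatments.

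Median ratios of the 5 genes were less far apart in the PV line. Ednrb was lower in the IP than in the input by test, at -1.38 ± 0.20 on the log2 scale after PBS (edgeR adjusted p = 2.7e-04) and -0.996 ± 0.196 after kainic acid (adjusted p = 0.00457), with no overlap. Its median ratio was 0.376 after PBS and 0.514 after kainic acid, against 0.558 and 0.565 for astrocyte markers and 3.41 and 3.04 for PV interneuron markers. CA1 pyramidal markers had 0.535 and 0.742, oligodendrocyte markers 0.81 and 0.799, and microglia markers 0.378 and 0.341. In the CaMK2a line oligodendrocyte markers had 0.165 and 0.162. The part of RNA from other cells in the PV IP values was not tested. Sh3bp4 was lower in the PBS IP at -1.03 ± 0.31 (adjusted p = 0.0337), with libraries that overlapped. That call ended in a fit to all PV groups (adjusted p = 0.146) and without PBS input replicate 1 (-0.93, 0.112) or 4 (-0.83, 0.0959) or PBS IP replicate 1 (-0.99, 0.0701), 2 (-1.02, 0.0729) or 3 (-0.93, 0.0753). Thus 2 of 5 members were called lower after PBS, beside 7.98% of all genes lower and 10.6% higher, and 1 of 5 after kainic acid, beside 4.11% lower and 6.85% higher. With the lysate pool as a block 1771 genes were higher and 1599 lower after PBS, against 1183 and 894, and 1313 and 1082 after kainic acid, against 767 and 460.

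Thbd differed between PV IP and input by -0.75 ± 0.33 after PBS and -1.05 ± 0.34 after kainic acid (edgeR adjusted p = 0.132 and 0.0618). With the lysate pool as a block these were -0.78 ± 0.27 and -1.09 ± 0.28 (adjusted p = 0.0391 and 0.0132), and the second also passed without kainic acid IP replicate 3 (-1.41, adjusted p = 0.0144) and with upper-quartile factors, DESeq2 or all PV groups in 1 fit (adjusted p = 0.0426, 0.0226 and 0.0439). Itpkb differed by -0.32 ± 0.28 and -0.60 ± 0.26, Cebpd by -0.05 ± 0.45 and -0.55 ± 0.43, and Sh3bp4 after kainic acid by -0.89 ± 0.53, none past the threshold (adjusted p = 0.476, 0.166, 0.96, 0.476 and 0.32). The value of Cebpd after PBS turned to 0.28 without replicate 4.

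Levels can be compared between genes only per length, as the RPKM the authors deposited. In the CaMK2a input after PBS the order of mean RPKM was Ednrb 3.28 ± 0.08 (SD, n = 3), Sh3bp4 2.06 ± 0.13, Itpkb 1.80 ± 0.03, Thbd 1.64 ± 0.06 and Cebpd 1.01 ± 0.11. After kainic acid Ednrb at 4.74 ± 0.29, Thbd at 4.62 ± 0.67 and Itpkb at 4.36 ± 0.87 lay within each other's spread, with Cebpd at 3.60 ± 0.63 overlapping Thbd and Itpkb and Sh3bp4 at 1.48 ± 0.10 apart below. In the CaMK2a IP Ednrb went from the lowest mean, 0.436 ± 0.151, to the highest, 2.11 ± 0.55, where its range of 1.49 to 2.48 overlapped Thbd at 1.43 to 1.59. Sh3bp4 went from the highest mean, 1.76 ± 0.18, with a range that overlapped Thbd, to the lowest, 0.517 ± 0.143, with a range that overlapped Itpkb. Thbd stayed between 1.43 and 1.80 RPKM in all 6 CaMK2a IPs. Among PV libraries Ednrb had the highest mean in all 4 groups, 3.85 ± 0.91 and 5.94 ± 1.39 in the input and 1.36 ± 0.23 and 2.74 ± 0.245 in the IP after PBS and kainic acid. The other 4 genes had PV means of 0.574 to 2.57 RPKM, with ranges that overlapped except in the kainic acid IP, where Itpkb at 1.09 to 1.57 lay above Sh3bp4 at 0.109 to 0.964.

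The other genes of the members' pathways came from lists chosen with earlier results of these data known, and none of their genes was called for a different response in IP and input in either line. Of the thrombin, protein C and plasminogen genes around Thbd, 9 of 13 tested rose in the CaMK2a input and 5 of 10 in the CaMK2a IP. In the PV line 7 of 11 rose in the input and 3 of 10 in the IP, and none fell in any fraction. Of all genes, 19.3% were called higher in the CaMK2a input, 19.8% in the CaMK2a IP, 8.21% in the PV input and 4.05% in the PV IP. The shares called lower were 15.7%, 15.3%, 3.36% and 0.801%. Without PV replicate 4 the PV input count was 8, beside 1608 of 11118 genes called higher. In the same CaMK2a input 5 of 12 endothelial markers rose (Cdh5, Cldn5, Flt1, Ly6c1 and Pecam1) and 2 fell, with a median of 0.57, in the PV input Cdh5 and Pecam1 rose, and their part in the result was not tested. Procr, which encodes the endothelial protein C receptor, rose in all 4 fractions, in the CaMK2a input from 0.468 ± 0.0532 to 5.71 ± 1.71 CPM and in the CaMK2a IP from 0.0443 ± 0.0767 to 3.08 ± 1.63. F2rl2, which encodes a protease-activated receptor, rose from 0.145 ± 0.151 to 5.74 ± 1.32 CPM in the CaMK2a IP. Procr in the CaMK2a input and IP and F2rl2 in the CaMK2a IP passed the low-count filter only through the kainic acid libraries. A rise of these genes there thus went with passing the filter. Between IP and input of the CaMK2a line, 9 genes of the list passed the filter after PBS and 13 after kainic acid. In the PV line 8 and 13 passed. The rises in both lines were thus counted among genes of which some passed only through kainic acid libraries. The list's median log2 change was 1.19 over the 13 genes tested in the CaMK2a input and 1.52 over the 10 tested in the IP. The medians cover different genes, and over all genes they were -0.02 and 0.01. Thbd was higher in the input alone.

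Of the C/EBP family and interleukin 6 type signalling genes around Cebpd, 9 of 11 rose in the CaMK2a input, 8 in the CaMK2a IP, 6 in the PV input and 4 in the PV IP, and none fell. The shares of all genes called higher in these fractions were 19.3%, 19.8%, 8.21% and 4.05%. Without PV replicate 4 the list counts were 8 in the PV input and 5 in the PV IP, beside 1608 of 11118 and 577 of 10988 genes. Socs3, a feedback inhibitor of cytokine receptors, rose by 6.65 ± 0.34 in the CaMK2a input and 5.62 ± 0.52 in the IP, and Osmr, the oncostatin M receptor, by 3.66 ± 0.20 and 3.51 ± 0.46. Stat3, the transcription factor below these receptors, rose by 1.98 ± 0.12 and 1.58 ± 0.17. Between IP and input of each line, 10 genes of the list passed the low-count filter after PBS and 11 after kainic acid. The rises counted above can thus include a gene that passed only through kainic acid libraries, where a rise goes with passing. Cebpb, the closest relative of Cebpd in the list, rose in the CaMK2a input by 1.65 ± 0.26 and changed by 0.35 ± 0.40 in the IP (edgeR adjusted p = 0.532), and its IP minus input difference was -1.34 ± 0.45 (adjusted p = 0.372). In the PV input Cebpb rose by 2.21 ± 0.48 and in the PV IP it changed by 1.33 ± 0.70 (adjusted p = 0.382). Cebpb shares 312 of 1504 exonic bases with Tmem189 on the opposite strand. The list's median was 0.79 in the CaMK2a input and 0.64 in the IP.

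Of the inositol phosphate genes around Itpkb, 3 of 12 rose and 3 fell in the CaMK2a input and the same counts held in the CaMK2a IP. In the PV line 1 of 13 rose in the input and 1 fell in the IP, or 3 rose and 2 fell in the input without replicate 4. Of all genes 19.3% were called higher and 15.7% lower in the CaMK2a input, and 19.8% and 15.3% in its IP. The PV shares were 8.21% and 3.36% in the input and 4.05% and 0.801% in the IP. Without replicate 4, 1608 of 11118 genes were higher and 1150 lower in the PV input. Itpkc, which encodes a kinase of the same family, rose by 1.64 ± 0.20 in the CaMK2a input, 1.28 ± 0.23 in the CaMK2a IP and 1.17 ± 0.28 in the PV input. Itpka, the remaining kinase gene of the family, fell by 0.53 ± 0.11 in the CaMK2a input, by 0.56 ± 0.10 in its IP and by 1.02 ± 0.26 in the PV IP. Itpkb, at -0.51 in the CaMK2a IP and 1.36 in the input, was near Itpka in the IP and near Itpkc in the input, and differences between these genes were not tested. Itpkc shares 1273 of 5221 exonic bases with BC024978 on the opposite strand. The list's median was -0.07 in the CaMK2a input and -0.04 in the IP.

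Of the endothelin genes around Ednrb, 3 of 7 rose and 2 fell in the CaMK2a input and 2 of 5 rose in the IP. In the PV line 1 rose and 1 fell of 7 in the input, or 2 and 3 without replicate 4, and none of 6 was called in the IP, by edgeR. Beside these, 19.3% of all genes were higher and 15.7% lower in the CaMK2a input, and 19.8% and 15.3% in its IP. The PV shares were 8.21% and 3.36% in the input, or 1608 and 1150 of 11118 genes without replicate 4, and 4.05% and 0.801% in the IP. The ligand gene Edn1 rose by 1.99 ± 0.37 in the CaMK2a input and 2.73 ± 0.59 in the PV input, and the ligand gene Edn3 fell by 1.56 ± 0.31 and 1.22 ± 0.33. The other receptor gene, Ednra, changed by -0.36 ± 0.20 in the CaMK2a input and -0.44 ± 0.36 in the IP (adjusted p = 0.18 and 0.372). Ece1, which encodes an endothelin converting enzyme, rose by 0.64 ± 0.09 in the CaMK2a input and 1.16 ± 0.10 in the IP. The list's median was 0.17 in the CaMK2a input and -0.17 in the IP.

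Of the transferrin uptake and Rag GTPase genes around Sh3bp4, 2 of 14 rose and 1 fell in the CaMK2a input, and 2 rose and 3 fell in its IP. In the PV line 2 rose and 1 fell in the input, or 2 and 2 without replicate 4, and 1 rose in the IP. Beside these, 19.3% of all genes were higher and 15.7% lower in the CaMK2a input, and 19.8% and 15.3% in its IP. The PV shares were 8.21% and 3.36% in the input, or 1608 and 1150 of 11118 genes without replicate 4, and 4.05% and 0.801% in the IP. Cltc, the clathrin heavy chain, rose in all 4 fractions, by 1.23 ± 0.09 in the CaMK2a input, 1.20 ± 0.10 in its IP, 0.92 ± 0.12 in the PV input and 0.65 ± 0.16 in the PV IP. Eps15, an endocytic adaptor, fell by 0.42 ± 0.10 in the CaMK2a input and 0.48 ± 0.09 in the IP. Tfrc, the transferrin receptor, changed by 0.03 ± 0.15 and 0.24 ± 0.10 there (edgeR adjusted p = 0.899 and 0.107), and it rose by 0.61 ± 0.18 in the PV input (adjusted p = 0.0442). No gene of the list fell in the CaMK2a IP as far as Sh3bp4 was lower, the lowest being Lamtor5 at -0.62 ± 0.18.

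**Figure D4:**
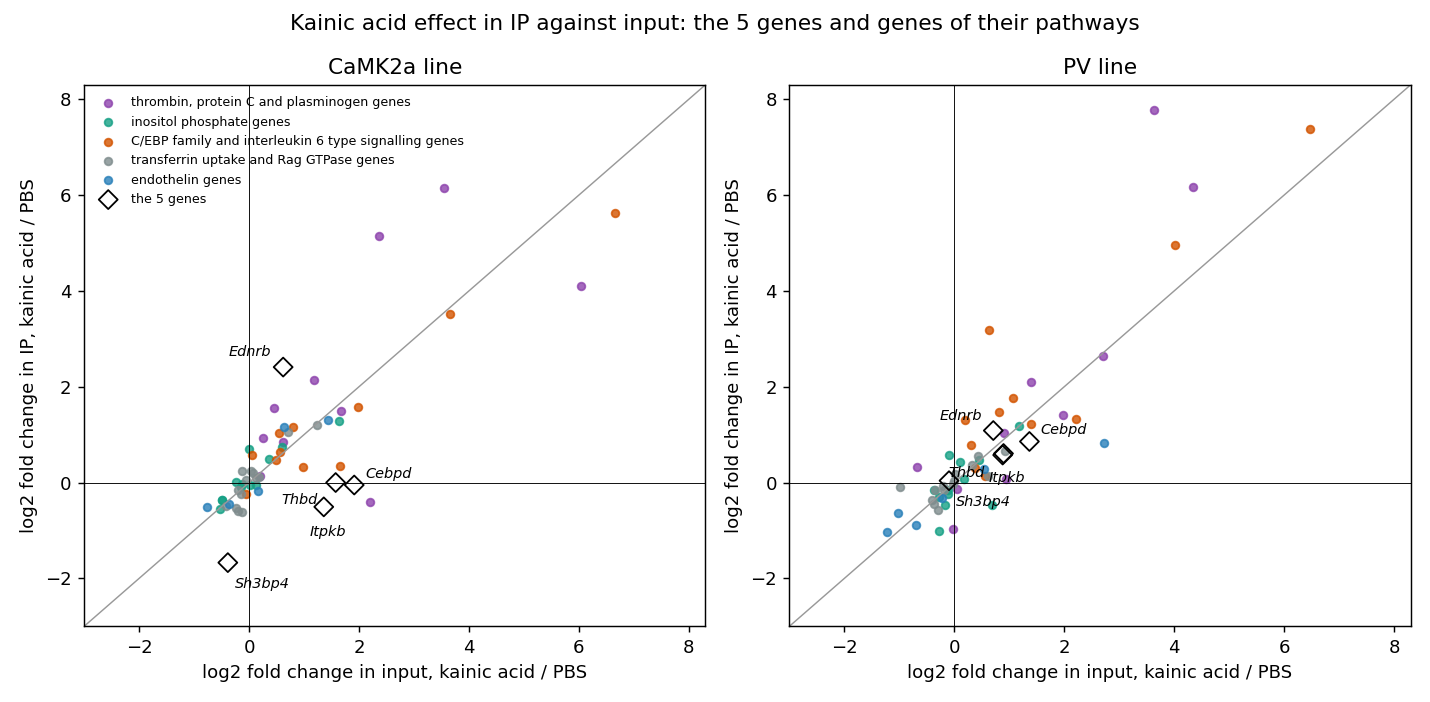
Log2 fold change of kainic acid against PBS in the input (x) and in the IP (y) for the 5 genes (diamonds) and for the genes of 5 pathway lists tested in both fractions (points), with the line of equal change. In the CaMK2a line Ednrb lies above that line and Thbd, Itpkb, Cebpd and Sh3bp4 below it, and in the PV line all 5 lie near it.

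The genes whose log2 CPM followed each member most closely over the 28 libraries, among 8025 genes, are a description, since libraries share pools and depth and the groups differ widely. Ednrb went with Slc14a1 (Pearson r = 0.940), Sox9 (0.937), Ntrk2 (0.937), F3 (0.922) and Pdlim5 (0.918). Sox9, an astrocyte transcription factor, rose by 2.36 ± 0.20 in the CaMK2a IP and 1.66 ± 0.12 in the input, and its IP minus input difference of 0.66 ± 0.25 did not pass (edgeR adjusted p = 0.449). Slc1a2, the most abundant astrocyte marker, changed by 0.17 ± 0.21 and 0.13 ± 0.09 there (adjusted p = 0.574 and 0.253). Of all 11 astrocyte markers 2 rose in the CaMK2a IP (S100b and Sox9) and 4 in the input, beside 19.8% and 19.3% of all genes called higher. The medians of the list were 0.51 and 0.25, and those of all genes 0.01 and -0.02. Itpkb went with Ucp2 (0.886), Slc39a1 (0.868), Cebpd (0.854), Csf1 (0.852) and Tagln2 (0.841). Cebpd went with Itpkb, Ctgf (0.822), Eif1 (0.813), Id2 (0.809) and Ucp2 (0.806), so this pair of members appeared in each other's list. Thbd went with Fam53c (0.882), Lrfn2 (0.867), Gpd1 (0.851), Selk (0.847) and Sin3b (0.835), and Sh3bp4 with Tmem9b (0.860), Papss1 (0.823), 0610007P14Rik (0.817), Frzb (0.817) and Rsu1 (0.800). Among the members r was 0.731 for Thbd with Itpkb and 0.773 for Thbd with Cebpd, and it was lowest for Sh3bp4 with Ednrb at -0.00486.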

How the data were processed

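Counts, RPKM and edgeR statistics of 28 libraries were deposited per comparison, and per the submitters' processing notes BWA, edgeR and mm10 (GRCm38) were used, with versions not given in the sources used here. The deposited counts are whole reads per coding gene. The deposited RPKM values were scaled by the authors to listed length and a library total, and were used for levels between genes alone. The deposited CPM, fold (ratio) and p-value columns of the authors were not used. Tables of genes higher and lower were joined, and 0 of 79845 CaMK2a and 0 of 109436 PV counts shared by 2 tables differed.

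The members and lists were chosen with earlier results of these data known. Tests were edgeR 4.0.16 quasi-likelihood tests across all genes (R 4.3.3, TMM, filterByExpr minimum count 10, prior count 0.125, Benjamini-Hochberg adjusted p threshold 0.05) on the groups compared, or on all 4 groups of a line for the difference of effects. Each SE was the absolute log2 fold change divided by the root of F. CPM used TMM factors of a line. The edgeR script was tested on simulated data with 200 changed genes. For the PV difference of effects it recovered 9% of 2-fold and 70% of 4-fold changes. For the PV input it made 183 calls, of which 16 were false. For kainic acid against PBS the p-values measure the spread between pools of mice. For IP against input and the difference of effects, the main fits treated IP and input of a lysate as independent libraries. The block pairs them.

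Named besides the members were the 5 genes of highest correlation to each, from each pathway list the called genes of largest change (up to 4 in the CaMK2a input and 2 in each other fraction), and the marker genes of highest CPM. Klf3, Ralb, Npy, Ptgs1, Unc5b, Rgs10, Ednra, Tfrc, Cebpb in other fractions, Lamtor5, S100b and the endothelial markers were named outside that rule after their values were seen. The values of 1 gene of these lists are not reported here. An IP and input of 1 number come from 1 lysate, per the design text, so the number pairs them. Kainic acid and PBS libraries of 1 number are different mice: their deviations correlated above 0.1 for every number in the PV input (0.126 to 0.575), but not in the other fractions. This was taken as pairing for the PV input block, although no label gives it and the same counts were then tested. Replicates 1 to 3 reached only 0.126 to 0.145, and kainic acid input replicate 2 correlated best with PBS input replicate 1. Of 100 named or listed genes 97 were found in GENCODE M21, and 24 had exons that overlap an oppositely oriented gene. The alternatives tried were DESeq2 1.42.0, other scaling factors (upper-quartile, relative log expression), other low-count filters (none, stricter), a replicate block, all groups of a line in 1 fit, PV replicates 1 to 3, and each library left out. Python 3.11.15 with matplotlib 3.10.9, pandas 2.3.3 and numpy 2.4.6 made tables and plots.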

Additional observations from a re-analysis of the deposited data

Results flagged for a closer look

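Cebpd gave 9.19 CPM in PV PBS input replicate 4, far above the other 3 libraries of its group at 3.75 to 4.49 CPM. Thbd gave 25.9 CPM in PV kainic acid IP replicate 3, far above the other 3 at 11.1 to 12.6 CPM. These were 2 of 20 groups of 4 libraries checked by Dixon's test, and chance gives about 1 in 20. Itpkb differed by -0.51 on the log2 scale between kainic acid and PBS in the CaMK2a IP and by 1.36 in the CaMK2a input, with every library of each fraction on its own side of the PBS libraries. This difference was taken as part of the choice of the gene and was not tested.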

How the results depend on the processing

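For values in the CaMK2a line, which had no test, 346 alternatives moved a value by less than its spread and 4 moved it by more. The IP minus input difference of Sh3bp4 went to -1.54 without CaMK2a kainic acid IP replicate 2, and leaving out 1 library at a time gave -1.54 to -1.14. With upper-quartile factors the CaMK2a IP to input differences after PBS moved for Thbd, Itpkb and Sh3bp4 (0.05, -0.75 and -0.16), as the median of all genes went to -0.13 there and -0.15 after kainic acid. Of the tested PV values 381 kept direction and side of the threshold, 20 turned sign, 23 lost and 11 gained the call, and each call lost or gained was of a value reported above. All turns of sign were of values not called. For Sh3bp4 they were the PV IP change (-0.0396 with upper-quartile factors, -0.342 with the replicate block, -0.357 to 0.381 leaving out 1 library), the PV input change (-0.34 to 0.12) and the PV difference of effects (-0.20 with the block, -0.27 to 0.51). For Cebpd it was IP against input after PBS (0.28 without replicate 4, -0.27 to 0.34 leaving out 1 library) and for Itpkb the PV difference of effects (0.0319 without replicate 4, -0.504 to 0.0108). The cause was not tested. The replicate block, which pairs by lysate pool between IP and input, changed the calls of Thbd given above and no other member's call.

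Counts of calls over all genes moved with the block (PV input 1835 higher and 1590 lower, against 915 and 374, and PV IP 651 and 248, against 450 and 89), with DESeq2 (37 and 46 for the CaMK2a difference of effects, against 5 and 7) with PV replicates 1 to 3 (1608 and 1150 in the PV input, 577 and 178 in the PV IP) and with all PV groups in 1 fit (776 and 285 in the PV IP, and 603 higher in the PV input). At the lowest, leaving out 1 library brought the PV IP down to 30 lower (PBS IP replicate 1), the PV input to 196 lower (PBS input replicate 2), PV IP against input to 581 lower after PBS (PBS input replicate 2) and to 486 higher and 234 lower after kainic acid (kainic acid input replicate 3), the CaMK2a IP to 979 lower (PBS IP replicate 3), and the CaMK2a difference of effects to 2 and 3 (kainic acid input replicate 3, PBS input replicate 1 or 3, or PBS IP replicate 3). The last went up to 24 and 39 without kainic acid IP replicate 1 and to 29 and 14 without replicate 2. With PV replicates 1 to 3 the PV difference of effects had 6 lower. Between kainic acid and PBS the replicate number only names a library in the CaMK2a fractions and PV IP, and in the PV input its pairing rests on the correlation alone. Sh3bp4 had 22 counts in 1 PV IP library.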
